A study of Mus musculus with 18 samples.

Results

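Acetylation of histone H3 at lysine 27 (H3K27ac) away from gene starts was described in bone marrow-derived macrophages (BMDM) of 3 mouse genotypes. Peaks on chromosomes 1 to 19 were merged across the 3 genotypes wherever they shared 1 bp or more, and 7 merged regions with 200 or more WT reads per kb of peak were set aside, which left 21518 regions. Of these, 2901 regions were touched by a peak of every genotype and lay more than 2 kb from the start of every protein-coding gene. They are called shared distal regions here. They are compared with 3475 shared regions at gene starts, within 2 kb of such a start, and with 12102 distal regions that held a peak of only 1 or 2 genotypes. The regions were chosen by the presence of a called peak in every genotype, so their presence is a description and not a result.

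WT BMDM came from mice labelled C57BL6. The mdx mice, labelled Dmdmdx-4Cv, lack dystrophin and model Duchenne muscular dystrophy, and the mdxTLR4-/- mice (mTLR4 in the labels, strain Bl6/Bl10) lack dystrophin and also TLR4, the receptor for lipopolysaccharide, so that dystrophin deficiency is shared by both. All mice were male, and BMDM were grown in L929-conditioned medium, which supplies macrophage colony-stimulating factor, and were not stimulated. H3K27ac was measured in 2 WT, 2 mdx and 1 mdxTLR4-/- ChIP libraries with 1 input, and H3K27me3 in 2 ChIP libraries of each genotype, labelled 12 to 17 weeks old. In the H3K27ac libraries the labelled age was 19 to 20 weeks in WT, 21 to 22 in mdx and 23 in mdxTLR4-/-, so age and genotype cannot be told apart, nor can strain and genotype for mdxTLR4-/-. Both labels are open to doubt: the ages step up by exactly 1 week per library, inputs included, and the methods of the paper place every strain on C57BL/6 J. The authors merged the replicates before calling peaks, which left 1 list per genotype. A difference between genotypes thus has no replicate check and no p-value. The H3K27ac peaks held 274020 reads from WT, 191629 from mdx and 168487 from mdxTLR4-/- BMDM. The median peak had 10, 10 and 8 reads in this order, and library depth is not known. Reads given for single regions below are unscaled and stand in the order WT, mdx, mdxTLR4-/-. Intervals, at the 95% level, reflect counting error or variation among regions and genes but never variation among mice.

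H3K27ac marks the nucleosomes around active promoters and active enhancers. Enhancers are stretches of DNA, often far from the gene they act on, that bind transcription factors, and in macrophages the ETS factor PU.1 (gene Spi1) opens many of them together with C/EBP, AP-1, IRF and RUNX factors. H3K27me3, placed by Polycomb complexes that contain EZH2, occupies the same lysine and is found at silent genes. A peak of H3K27ac alone makes a region a candidate enhancer only, and the gene with the nearest start need not be the gene it acts on.

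The sequences of 5 shared distal regions are shown because they lie nearest to genes of macrophage lists and carry the PU.1 letters that the motif results below turn on. Each is the 300 bases at the centre of the stretch under peaks of all 3 genotypes, from the GRCm38 genome (mm10 coordinates), with letters matched by the PU.1, C/EBP, ISRE, composite or RUNX searches in capitals. On the plus strand the PU.1 letters GAGGAAGT can also appear as ACTTCCTC. Traf6 encodes an adaptor of Toll-like receptor signalling, Atp6v0d2 a subunit of the proton pump of lysosomes, Mitf a lysosomal and osteoclast transcription factor, Ccr1 a chemokine receptor and Batf an AP-1 factor.
Traf6, chr2:101767151-101767450, plus strand: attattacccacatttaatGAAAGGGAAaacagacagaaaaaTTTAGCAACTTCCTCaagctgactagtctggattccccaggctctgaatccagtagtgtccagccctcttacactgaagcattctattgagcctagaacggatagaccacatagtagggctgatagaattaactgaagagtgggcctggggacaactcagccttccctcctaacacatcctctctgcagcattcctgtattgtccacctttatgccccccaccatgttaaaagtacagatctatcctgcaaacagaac
Atp6v0d2, chr4:19893751-19894050, plus strand: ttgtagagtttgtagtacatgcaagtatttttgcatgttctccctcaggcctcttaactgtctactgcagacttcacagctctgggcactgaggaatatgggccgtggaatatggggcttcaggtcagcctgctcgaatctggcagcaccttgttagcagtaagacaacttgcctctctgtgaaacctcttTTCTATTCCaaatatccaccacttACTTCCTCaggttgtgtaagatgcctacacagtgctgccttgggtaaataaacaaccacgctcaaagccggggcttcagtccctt
Mitf, chr6:97829251-97829550, plus strand: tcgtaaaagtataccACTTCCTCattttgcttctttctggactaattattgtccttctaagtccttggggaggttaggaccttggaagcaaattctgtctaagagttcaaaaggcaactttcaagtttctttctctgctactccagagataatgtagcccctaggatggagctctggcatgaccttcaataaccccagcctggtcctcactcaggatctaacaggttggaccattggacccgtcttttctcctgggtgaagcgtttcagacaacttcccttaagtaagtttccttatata
Ccr1, chr9:123941351-123941650, plus strand: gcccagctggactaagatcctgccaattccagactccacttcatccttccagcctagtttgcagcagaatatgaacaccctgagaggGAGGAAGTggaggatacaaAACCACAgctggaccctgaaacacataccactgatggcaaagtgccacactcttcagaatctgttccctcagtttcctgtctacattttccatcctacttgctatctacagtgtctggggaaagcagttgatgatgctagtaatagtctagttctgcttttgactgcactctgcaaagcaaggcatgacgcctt
Batf, chr12:85705351-85705650, plus strand: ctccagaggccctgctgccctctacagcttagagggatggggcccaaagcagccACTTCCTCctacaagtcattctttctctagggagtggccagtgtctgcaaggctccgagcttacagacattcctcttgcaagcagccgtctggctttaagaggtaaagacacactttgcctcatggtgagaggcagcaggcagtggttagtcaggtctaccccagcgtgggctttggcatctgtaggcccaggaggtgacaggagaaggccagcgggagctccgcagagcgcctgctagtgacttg

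The Traf6 window held 3 kinds of match, with ISRE letters from base 20, C/EBP letters from base 43 and PU.1 letters from base 50. Its region, chr2:101765401-101768000, lay 86972 bp from the gene start and held 21 reads from WT, 9 from mdx and 8 from mdxTLR4-/- BMDM. The Atp6v0d2 window lay in an intron of that gene, and its region, chr4:19891001-19896600, held 54, 41 and 59 reads. The Mitf region, intronic at chr6:97828401-97831800, held 23, 10 and 8 reads. The Ccr1 region, intergenic at chr9:123940401-123944200, held 21, 7 and 7 reads, and the Batf region, intronic at chr12:85704401-85706800, held 47, 44 and 27 reads. Unscaled reads were fewest in mdxTLR4-/- BMDM in 3 of the 5 regions, equal in mdx and mdxTLR4-/- BMDM at Ccr1, and most in mdxTLR4-/- BMDM at Atp6v0d2. The mdxTLR4-/- list also held fewest reads over all peaks. Of the 101 regions nearest to genes of the 7 macrophage lists described below, 11 held a PU.1 match in such a window. Among all shared distal regions with such a window, 7.72% did. In windows at the centre of the whole region, 8 of the 101 held a match (7.92%, 4.07 to 14.9). The share of all shared distal regions there was 5.34% (4.58 to 6.22). These intervals overlapped, so no excess of PU.1 letters near genes of the macrophage lists is read from these counts.

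The centre of a shared distal region lay in an intron in 48.0% (Wilson interval 46.2 to 49.8), in an exon in 5.62% and between genes in 46.4%. In distal regions of 1 or 2 genotypes introns held 40.4% (39.6 to 41.3) and intergenic sequence 56.0%. The median distance to the nearest protein-coding start was 25.2 kb (23.9 to 26.6), with quartiles of 10.8 and 59.7 kb, against 44.1 kb (42.7 to 45.8) for the distal regions of 1 or 2 genotypes. Distances over 100 kb were found for 13.9% of the shared distal regions and 32.1% of the others. The centre was inside the nearest gene in 38.4%, upstream of it in 42.6% and downstream in 19.0%. Repeat-masked sequence made up a mean of 23.2% of a shared distal region and 49.1% of a distal region of 1 or 2 genotypes. Whether the repeats contribute to the difference in position was not tested.

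**Figure D1:**
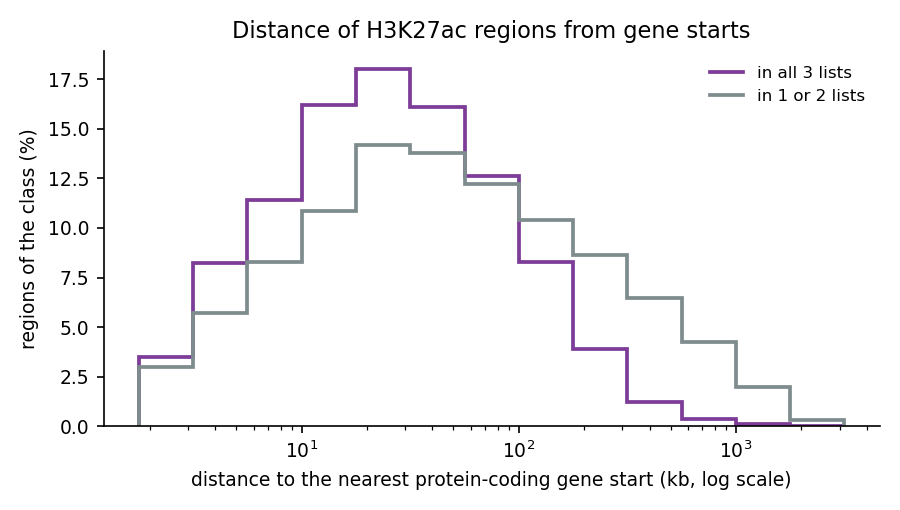
Share of regions (percent, y axis) by distance to the nearest protein-coding gene start (kb, logarithmic x axis) for the shared distal regions and the distal regions of 1 or 2 genotypes. The shared distal regions lie nearer, with a median of 25.2 kb against 44.1 kb.

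The regions nearest outside the distance limit lay 1971 bp from the starts of Ly6i and Mppe1. The one at Ly6i, chr15:74985401-74991000, had 17.7 reads per kb from WT, 22.9 from mdx and 15.9 from mdxTLR4-/- BMDM. The region nearest inside it lay 2003 bp from Irf2bpl, at chr12:86886801-86889800, with 17.1, 6.92 and 7.50 reads per kb. At the limit on WT reads, the densest region kept had 170 reads per kb in WT and the sparsest one set aside had 235. The distance rule used the 5′ end of each gene, and 588 shared distal regions (20.3%) lay within 2 kb of the start of another transcript of a protein-coding gene. Among them are the intronic Csf1r, Spi1 and Fcgr3 regions and the Mir21a region below. The Runx1 region chr16:92696401-92699200 and the Foxp1 region chr6:99434801-99437600 also belong to them. Such regions may be starts of other transcripts, so the distance rule does not set them apart from gene starts.

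Some shared distal regions lay at the start of genes that do not code for protein. The start of a long noncoding RNA was inside 225 of them (7.76%, 6.84 to 8.79), against 1.41% (1.22 to 1.64) of the distal regions of 1 or 2 genotypes, 13.6% of the shared regions at gene starts and 5.10% of all merged regions. The start of any gene that is not protein-coding was in 343 (11.8%), against 3.13% of the distal regions of 1 or 2 genotypes, 19.3% at gene starts and 7.99% of all merged regions. Neat1, the scaffold RNA of nuclear paraspeckles, lay in chr19:5839201-5852200, which held 298 reads from WT, 251 from mdx and 205 from mdxTLR4-/- BMDM. Malat1, an abundant nuclear RNA, lay in chr19:5793801-5813200, which held 167, 125 and 124 reads. Both regions were thus read highest in WT, where the whole list also held most reads. Starts of microRNA genes were inside 20 regions (0.689%, 0.447 to 1.06), against 0.190% (0.127 to 0.285) of the distal regions of 1 or 2 genotypes. They were in 2.16% of the shared regions at gene starts and 0.655% of all merged regions. tRNA genes lay in 24 regions (0.827%), against 0.149% of the distal regions of 1 or 2 genotypes and 0.330% of all merged regions. The 24 regions held 41 of the 386 tRNA genes on chromosomes 1 to 19.

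The microRNA region with most reads covered Mir21a, at chr11:86576001-86589000. It was 13000 bp long and held 281 reads from WT, 233 from mdx and 197 from mdxTLR4-/- BMDM, or 26.0, 18.2 and 17.6 reads per kb. miR-21 is a microRNA known as a regulator of inflammatory signalling in macrophages. Its mature sequence, from RefSeq on GRCm38.p6 (chr11:86584120-86584141, minus strand), is shown with the seed, bases 2 to 8, in capitals.
mmu-miR-21a-5p: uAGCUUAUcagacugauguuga

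Sequence was not used to choose the regions. PU.1 letters (GAGGAAGT, searched like all motifs on both strands) were found in the central 300 bases of 5.34% of the shared distal regions (4.58 to 6.22). They were found in 3.19% (2.66 to 3.83) of the shared regions at gene starts, in 4.15% (3.81 to 4.52) of the distal regions of 1 or 2 genotypes and in 3.96% of all merged regions. In windows 4.5 to 6 kb from the centre of shared distal regions the share was 2.06%. When windows were centred on the stretch under peaks of all 3 genotypes, the share rose to 7.72% (6.80 to 8.75). PU.1 letters were thus densest at the centre and fell to the level of the flanks within about 2 kb on either side. This holds as a description of letters, and binding of PU.1 was not measured.

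AP-1 letters (TGANTCA), bound by FOS, JUN and BATF factors, were in 13.1% of the shared distal regions (11.9 to 14.4), 10.3% (9.74 to 10.8) of the distal regions of 1 or 2 genotypes and 9.16% of all merged regions. The flanks of the shared distal regions held 8.86%. At gene starts the same letters were in only 5.38% (4.68 to 6.18), under the 8.53% of the flanks there, so that the profile rose at the centre of shared distal regions and dipped at gene starts. The MAF half-site (TGCTGAC) was in 7.62% (6.71 to 8.64), against 4.59% (4.24 to 4.98) of the distal regions of 1 or 2 genotypes, 3.74% at gene starts and 4.68% of all merged regions.

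The GC box (GGGCGGG), the site of SP and KLF factors, was most frequent at gene starts. It was in 23.5% (22.1 to 24.9) of the shared regions at gene starts, 5.89% (5.09 to 6.81) of the shared distal regions, 2.36% (2.11 to 2.65) of the distal regions of 1 or 2 genotypes and 9.10% of all merged regions. The median GC content of the window was 48.0% in shared distal regions, 56.3% at gene starts and 42.7% in the distal regions of 1 or 2 genotypes, and CpG dinucleotides numbered 1.88, 5.69 and 1.17 per 100 bases. The NF-kappaB consensus was in 4.10% (3.44 to 4.89) of the shared distal regions, 5.41% of the gene-start regions, 2.24% (1.99 to 2.52) of the distal regions of 1 or 2 genotypes and 3.38% of all merged regions. Motifs rich in G and C can follow base composition, and its part in these shares was not tested. Masked repeats made up 19.7% of the windows of shared distal regions, 10.9% at gene starts and 48.6% in the distal regions of 1 or 2 genotypes, and their part in the shares was not tested either.

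Letters of C/EBP, IRF and RUNX factors were not more frequent in shared distal regions than in the distal regions of 1 or 2 genotypes. C/EBP letters (TTGCNNAA) were in 13.0% (11.9 to 14.3) against 14.3% (13.7 to 14.9), with 12.6% of all merged regions. The ISRE of interferon signalling (GAAANNGAA) was in 11.1% (9.97 to 12.3) against 13.7% (13.1 to 14.3), with 11.8% of all merged regions. The PU.1-IRF composite (GGAANNGAA) was in 11.3% (10.2 to 12.5) against 11.6%, with 10.4% of all, and RUNX letters (TGTGGTT) were in 7.79% (6.87 to 8.82) against 8.07%, with 6.82% of all. Flanks of the shared distal regions held C/EBP letters in 11.9%, the ISRE in 9.83%, the composite in 10.2% and RUNX letters in 7.89%. The ISRE share there lay below the interval at the centre. Of the 101 regions nearest to macrophage-list genes, 20.8% (14.0 to 29.7) held C/EBP letters and 1.98% (0.545 to 6.93) RUNX letters. Both intervals overlapped those of all shared distal regions. The ISRE and the composite differ in a single letter and the composite shares letters with PU.1, so 1 stretch of sequence can count for more than 1 of them. The E-box of MITF, TFE and USF factors (CACGTG) was in 4.83% (4.10 to 5.67), against 3.97% (3.63 to 4.33) of the distal regions of 1 or 2 genotypes, 6.68% at gene starts and 4.86% of all merged regions. CCAAT was in 29.3% and in 35.6% of all. The MYOD E-box (CAGCTG), a motif of muscle factors that other E-box proteins also bind, was in 17.1% (15.8 to 18.5) and in 13.3% (12.9 to 13.8) of all. The MEF2 consensus was in 0.724% and in 0.576% of all, and the CTCF consensus in 0.345% and 0.172%. Across 3 groups of shared distal regions ordered from low to high scaled density, PU.1 letters were in 4.91%, 6.05% and 5.21%, with overlapping intervals.

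**Figure D2:**
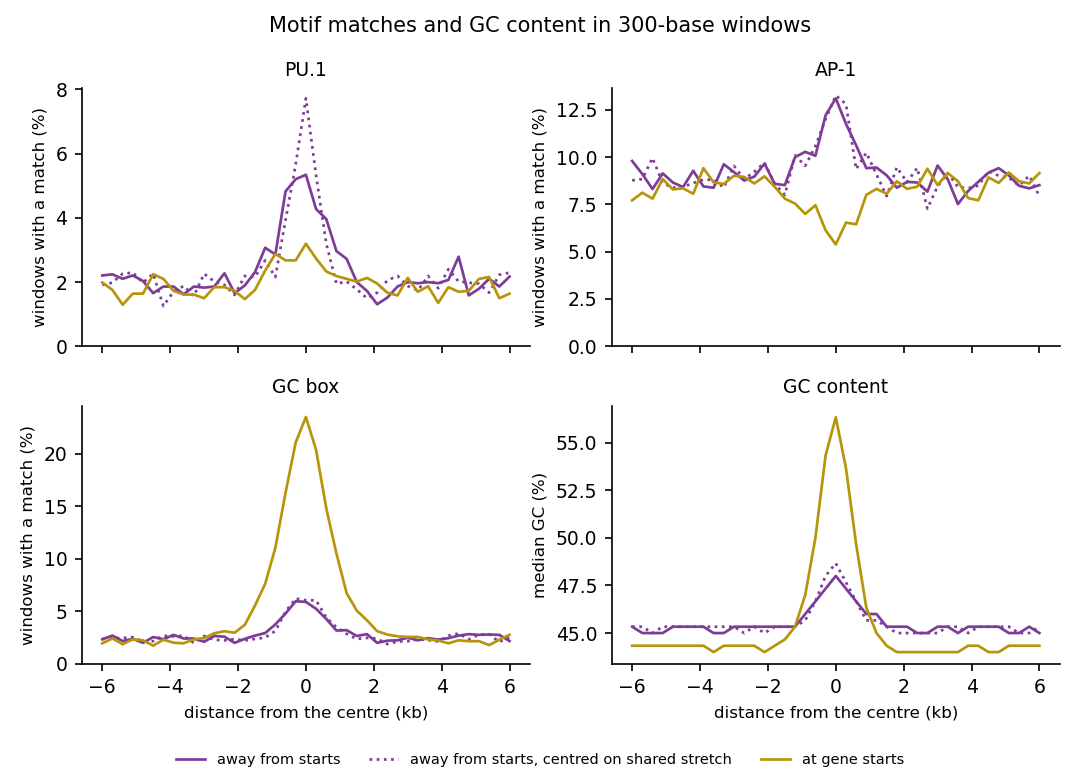
Share of 300-base windows with PU.1, AP-1 or GC box letters and median GC content (percent, y axes) by distance from the centre of a region (kb, x axis), for shared distal regions, the same centred on the stretch under peaks of all 3 genotypes (dotted), and shared regions at gene starts. PU.1 and AP-1 rise at the centre of shared distal regions, to 5.34% and 13.1%, while the GC box and GC content peak at gene starts, at 23.5% and 56.3%.

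Each region was assigned to the protein-coding gene with the nearest start. The 2901 regions fell to 2175 of 20780 genes (10.5%, 10.1 to 10.9), of which 1674 had 1 region and 151 had 3 or more. Of 183 genes in 7 macrophage lists, 68 were nearest to a shared distal region (37.2%, 30.5 to 44.4), and of 125 genes in 8 lists of other cell types, 11 were (8.80%, 4.98 to 15.1). The intervals of the pooled macrophage lists and of all genes did not overlap. Among the 10 defining macrophage markers, 5 were nearest to a shared distal region, 7 had a shared region at their start and 9 had at least 1 of these, all but Csf2rb. The nearest gene also had a shared region at its own start for 37.3% of the shared distal regions (35.6 to 39.1), while 20.1% (19.6 to 20.7) of all protein-coding genes had one.

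**Figure D3:**
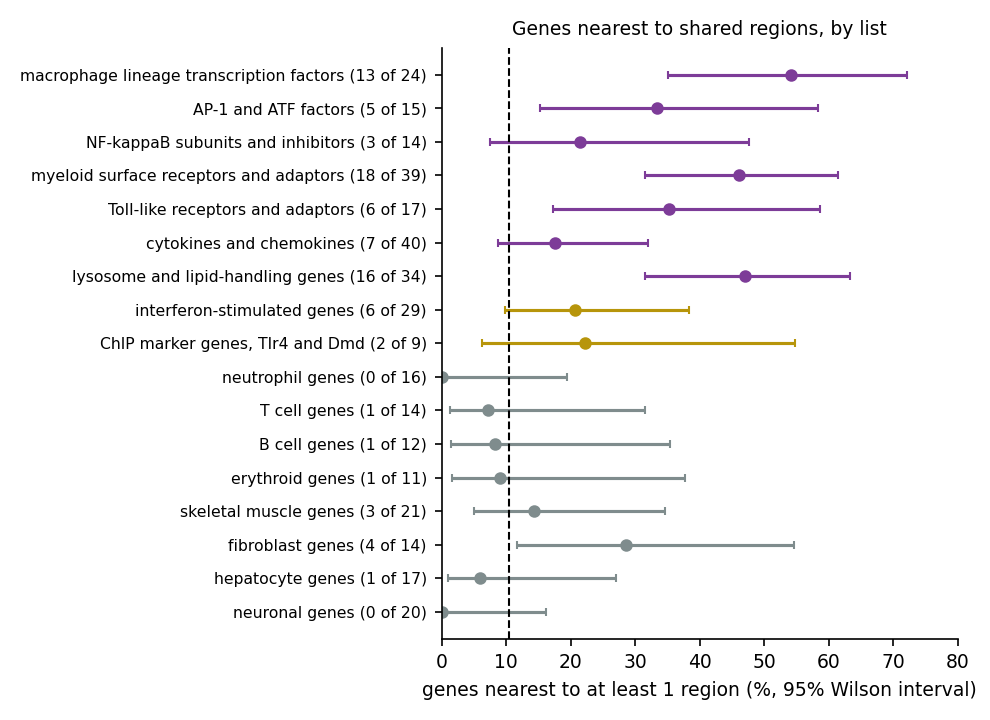
Percent of the genes of each list that are nearest to a shared distal region (x axis, points with 95% Wilson bars), with the share of all protein-coding genes as a dashed line. Macrophage transcription factors, myeloid receptors and lysosome genes lie at 54.2%, 46.2% and 47.1%, against 10.5% of all genes, and neutrophil and neuronal genes lie at 0.

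Macrophage transcription factors held the highest share, with 13 of 24 genes (54.2%, 35.1 to 72.1) and 31 regions. Zeb2, a repressor that keeps the identity of resident macrophages, had 7, Klf6 6 and Runx1 4, and Spi1, Irf8, Maf, Mitf, Fli1 and Klf4 also had at least 1. The Zeb2 regions lay 76.4 to 1323 kb from its start with the farthest pair at 1247806 and 1322606 bp, and the Klf4 region lay 580935 bp away. The Spi1 region lay in an intron at chr2:91095001-91099800, 12611 bp from the gene start, and held 54 reads from WT, 48 from mdx and 40 from mdxTLR4-/- BMDM. The region at the Spi1 start, chr2:91081201-91089200, held 108, 96 and 95 reads. Both are shared regions, so their reads in every genotype follow from the selection. AP-1 and ATF factors had 5 of 15 genes (33.3%), among them Jun with 3 regions, Atf3 with 3 and Fos with 2. NF-kappaB genes had 3 of 14 (21.4%, 7.57 to 47.6), an interval that includes the 10.5% of all genes. They were Nfkbia, Nfkbiz and Tnfaip3, which encode inhibitors or regulators of the pathway. Other inhibitors or regulators of the list, Nfkbib, Nfkbie, Nfkbid and Bcl3, had no region. The Tnfaip3 region, chr10:19061001-19065000, lay 45344 bp upstream and held 71, 38 and 35 reads.

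Klf6, a zinc-finger factor induced by inflammatory signals, had 6 regions between 14.7 and 245 kb from its start, with 274 reads from WT, 188 from mdx and 213 from mdxTLR4-/- BMDM together. The strongest, chr13:5801201-5806200, lay 55282 bp upstream and held 117, 92 and 95 reads, or 25.4, 28.8 and 19.8 reads per kb. Jmjd1c, which encodes a protein of the histone demethylase family, had 7 regions within 241 kb upstream with 212, 144 and 112 reads. The farthest of these, chr10:66850201-66855000, was the strongest with 98, 63 and 36 reads. Runx1, a factor of blood cell formation, had 4 regions. Those in its intron, chr16:92674001-92677400 and chr16:92696401-92699200, held 41, 27 and 29 reads and 16, 15 and 12 reads. Those upstream, chr16:92863401-92871400 and chr16:93025601-93035200, held 52, 26 and 37 reads and 75, 54 and 51 reads. In all 4 the WT list held most reads, as it did over all peaks.

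**Figure D4:**
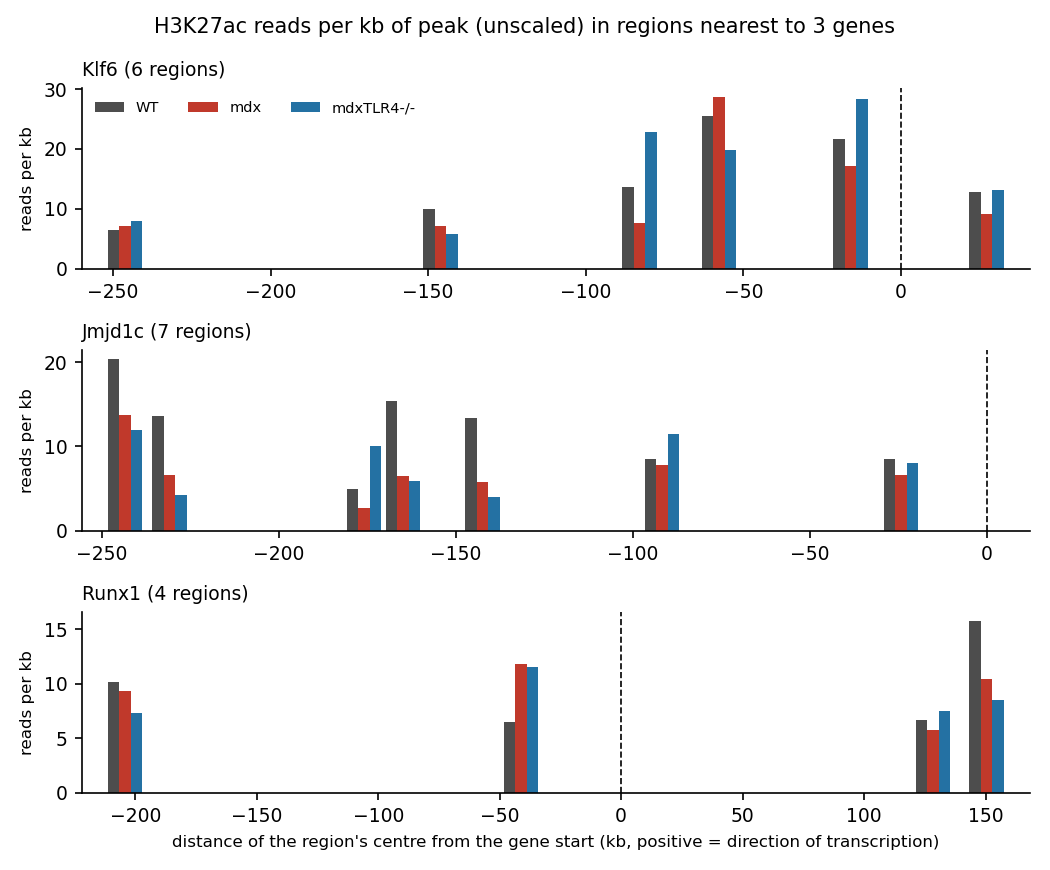
H3K27ac reads per kb of peak, unscaled (y axis), in WT, mdx and mdxTLR4-/- BMDM for the shared distal regions nearest to Klf6, Jmjd1c and Runx1, by distance from the gene start (kb, x axis, start as a dashed line; bar width is not to scale). The regions lie on both sides of the Runx1 start, all upstream of Jmjd1c and all but 1 upstream of Klf6, and the Klf6 region about 58 kb upstream has 25.4, 28.8 and 19.8 reads per kb.

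Other genes with most regions were Tomm20, Tmem189, Foxp1, Chd2, Atp2b1, Zfp36l2 and Enpp6. The 6 regions nearest to Tmem189 lay 62.4 to 114 kb upstream of its start. That start lies within Cebpb, at chr2:167688915-167690418. Cebpb, a gene of the macrophage transcription factor list, was counted with 0 nearest regions, though its own start is almost as near. The 7 regions nearest to Tomm20, a mitochondrial import receptor, lay 23.8 to 138 kb from its start and held 406 reads from WT, 275 from mdx and 288 from mdxTLR4-/- BMDM. Of these, 5 lay within 12.5 kb of the next and spanned 61.0 kb, at chr8:126823801-126884800. Foxp1, a forkhead factor of monocyte differentiation, had 6 intronic regions with 141, 101 and 79 reads. Zfp36l2, which binds AU-rich mRNA, had 6 with 124, 128 and 62 reads. These reads are unscaled. Over all peaks the WT list held most reads and the mdxTLR4-/- list fewest, so no order of genotypes is read from them. When regions within 12.5 kb of each other were joined, 2300 stood alone, 224 pairs formed, and 41 groups held 3, 5 held 4 and 2 held 5 regions.

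Surface receptors and adaptors of myeloid cells had 18 of 39 genes (46.2%, 31.6 to 61.4). Csf1r, the receptor for macrophage colony-stimulating factor, had 2 shared distal regions and no shared region at its start. The one in an intron, chr18:61103201-61111400, lay 2603 bp from the start and held 154 reads from WT, 165 from mdx and 96 from mdxTLR4-/- BMDM, or 24.1, 28.4 and 16.6 reads per kb. The one upstream, chr18:61090001-61092000, held 25, 25 and 16 reads. In both, mdxTLR4-/- BMDM held fewest reads, as they did over all peaks. In density scaled as described below, the intronic region had 19.7, 30.1 and 19.8 reads per kb. The upstream one had 12.8, 16.5 and 9.57. The region with most reads near a chemokine receptor lay 35692 bp from Ccr1, at chr9:123923201-123933000, with 222, 145 and 141 reads. Fcgr1, a high-affinity Fc receptor, had an upstream region at chr3:96300001-96303000 with 63, 20 and 27 reads. Fcgr3, a low-affinity Fc receptor, had an intronic region at chr1:171055201-171061400 with 31, 46 and 36 reads.

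Lysosome and lipid-handling genes had 16 of 34 (47.1%, 31.5 to 63.3). Lgals3, which encodes galectin-3, had 3 regions, of which the intronic one, chr14:47371201-47379400, held 84 reads from WT, 56 from mdx and 43 from mdxTLR4-/- BMDM. Abca1, the cholesterol exporter, had 3, and the one upstream, chr4:53185801-53188000, held 51, 26 and 23 reads. Ctsb, the protease cathepsin B, had 1 upstream, at chr14:63102601-63105000, with 37, 27 and 38 reads. Genes of Toll-like receptors and their adaptors had 6 of 17 (35.3%). The Tlr2 region, chr3:83862201-83864000, held 14, 11 and 11 reads and the Tlr9 region, chr9:106229401-106232000, held 33, 30 and 14. Tlr4, the gene deleted in mdxTLR4-/- mice, had no shared distal region. The region at its start, chr4:66826601-66829400, held 44, 29 and 28 reads. A region inside the gene, 14017 bp from the start at chr4:66841601-66844400, had a peak of 8 reads in WT and of 5 reads in mdxTLR4-/- BMDM and none in mdx BMDM. Which part of Tlr4 is deleted is not given in the sources used here, so the genotype label was not checked at this gene.

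Cytokines and chemokines had 7 of 40 genes (17.5%, 8.75 to 32.0), an interval that includes the share of all genes. They were Il10, Il12a, Il12b, Ccl2, Cxcl10, Pdgfa and Ifnb1. The Il10 region, chr1:131014801-131016400, lay 3445 bp upstream of this anti-inflammatory cytokine and held 7, 11 and 7 reads. The Il12b region, chr11:44414001-44415600, held 13, 8 and 9 reads, and the Ccl2 region, chr11:82005201-82008200, held 24, 16 and 9. These values rest on few reads, the smallest peak of a list having 5. Interferon-stimulated genes had 6 of 29 (20.7%, 9.85 to 38.4), an interval that also includes the share of all genes.

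Of the marker genes that the study examined by ChIP with Tlr4 and Dmd, 2 of 9 on chromosomes 1 to 19 were nearest to a shared distal region. The region in the Mrc1 intron, chr2:14248401-14251000, held 16 reads from WT, 24 from mdx and 22 from mdxTLR4-/- BMDM, where the region at the Mrc1 start, chr2:14228801-14234200, held 25, 16 and 9. Mrc1 encodes the mannose receptor CD206, and its intronic region was thus lowest in WT while its start was highest in WT, in unscaled reads. Both rest on few reads. In density scaled as described below, the intronic ratio of mdx to WT was 1.74 (0.889 to 3.51), an interval that includes 1. That of mdxTLR4-/- to WT was 2.58. The Il12a region, chr3:68556201-68558200, lay 132444 bp upstream and held 12, 17 and 8 reads. Near Tnf, a shared distal region at chr17:35209401-35211600 lay nearest to Lta and held 29, 12 and 18 reads. Near Tgfb1, the region at chr7:25705401-25708200 lay nearest to Ccdc97 and held 13, 10 and 11 reads.

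Among the lists of other cell types, neutrophil and neuronal genes had no gene nearest to a shared distal region, of 16 and 20, which leaves shares of up to 19.4% and 16.1% within the intervals. T cell, B cell, erythroid and hepatocyte lists had 1 gene each. Skeletal muscle genes had 3 of 21, Myog, Acta1 and Mef2c. Mef2c, a factor that macrophages also express, had 5 regions, of which chr13:83523201-83528800 held 41 reads from WT, 39 from mdx and 34 from mdxTLR4-/- BMDM. Fibroblast genes had 4 of 14 (28.6%, 11.7 to 54.6), which were Col1a1, Col1a2, Col3a1 and Dcn. The Col3a1 region was 200 bp long, 360138 bp from the gene and 93.5% repeat-masked, and the Col1a1 region was under H3K27me3 peaks in all 3 genotypes. The Col1a2 region, chr6:4537801-4541600, lay inside the gene and held 23, 13 and 22 reads, and the Dcn region, chr10:97312401-97314200, held 14, 10 and 9. These were 15.1% and 13.4% repeat-masked and free of H3K27me3 peaks. No fibroblast gene had a shared H3K27ac region at its start.

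The shared distal regions had median densities of 9.44 reads per kb of peak (9.17 to 9.76) for WT, 7.92 (7.78 to 8.08) for mdx and 7.78 (7.50 to 8.00) for mdxTLR4-/- BMDM, with medians of 20, 14 and 12 reads. The 5th and 95th percentiles were 4.29 and 23.9 in WT, 3.75 and 20.8 in mdx and 3.64 and 19.3 in mdxTLR4-/- BMDM. The shared regions at gene starts had nearly the same medians, 9.44, 8.33 and 8.00. The median length was 2800 bp, with quartiles of 2000 and 3800 bp. The 26 regions with at least 50 WT reads per kb had a median length of 600 bp and were 56.4% repeat-masked in the mean, and the densest by the mean of the lists, chr17:4625601-4626800 nearest to Arid1b, held 66, 91 and 181 reads.

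**Figure D5:**
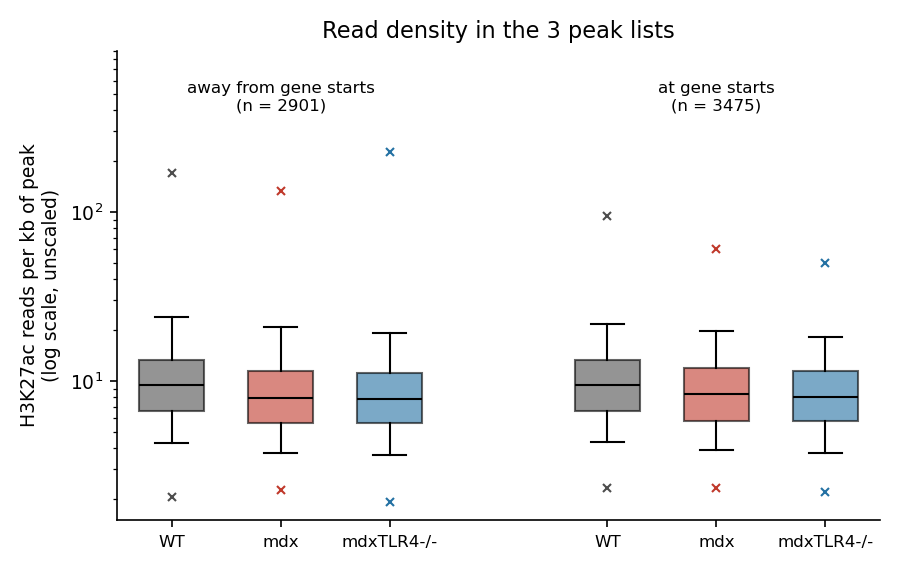
Reads per kb of peak (logarithmic y axis) in shared distal regions and shared regions at gene starts in WT, mdx and mdxTLR4-/- BMDM, with boxes for quartiles, lines for medians, whiskers for the 5th and 95th percentiles and crosses for the lowest and highest region. The medians of the shared distal regions, 9.44, 7.92 and 7.78, lie close to those at gene starts.

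The longest shared distal regions lay on chromosome 6 between Ezh2, the H3K27 methyltransferase, and Pdia4. The one at chr6:47650801-47687200 was 36400 bp long and held 376 reads from WT, 233 from mdx and 138 from mdxTLR4-/- BMDM. The one at chr6:47737001-47766600 held 340, 179 and 103 reads. Their unscaled densities were 10.4, 7.06 and 4.66 reads per kb and 11.5, 7.10 and 4.64 reads per kb. Both fell in the order WT, mdx, mdxTLR4-/-, as total reads over all peaks did. In density scaled as described below, the ratio of mdx to WT in the first region was 0.878 (0.742 to 1.04), an interval that includes 1. In the second region it was 0.799 (0.663 to 0.960). The ratios of mdxTLR4-/- to mdx were 0.746 and 0.738, with intervals below 1. These intervals hold counting error only.

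A comparison that needs no scaling between libraries is the share of the reads of shared regions that lay in distal ones. The WT list had 43.2% there (42.9 to 43.4, exact binomial), the mdx list 41.8% (41.5 to 42.0) and the mdxTLR4-/- list 41.7% (41.5 to 42.0). The WT share was higher than the others by more than counting error, and those of mdx and mdxTLR4-/- BMDM differed by less than it. The share counts reads in called peaks, which covered 78.2%, 68.6% and 61.2% of the shared distal regions and 78.7%, 70.8% and 63.8% of those at gene starts (WT, mdx, mdxTLR4-/-), and the part of this in the difference was not tested. With a single list per genotype, the spread between mice behind this difference of under 2 percentage points is unknown.

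For single regions, density was scaled so that the reads of the shared regions at gene starts were equal in the 3 lists. The median ratio of mdx to WT in shared distal regions was then 1.08 (1.06 to 1.11), that of mdxTLR4-/- to WT 1.19 (1.17 to 1.22) and that of mdxTLR4-/- to mdx 1.10 (1.08 to 1.13). The direction depended on the measure. The median ratios of scaled reads, with no division by peak length, were 0.969 (0.947 to 0.980), 0.948 (0.934 to 0.973) and 0.979 (0.960 to 0.997), and peaks in mdx and mdxTLR4-/- BMDM were shorter, with median ratios of peak length of 0.889, 0.80 and 0.909 in the same order. The unscaled density ratios were 0.833, 0.818 and 0.978. No direction common to the shared distal regions is therefore given.

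In scaled density, 739 shared distal regions (25.5%) were at least 1.5 times higher in mdx than in WT, where 26.3% of all shared regions were, and 449 (15.5%) were at least 1.5 times lower, where 13.8% of all were. For mdxTLR4-/- against WT, 915 (31.5%) were higher with 32.9% of all, and 339 (11.7%) were lower with 10.4% of all. For mdxTLR4-/- against mdx, 780 (26.9%) were higher with 26.5% of all, and 444 (15.3%) were lower with 15.5% of all. These shares were near the background in each comparison. Of the 739 regions higher in mdx by density, 176 (23.8%) were also higher by scaled reads, and their median ratio of peak length was 0.545.

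At least 20 reads in both the WT and the mdx list were held by 792 regions. Among these, the largest falls in scaled density from WT to mdx were nearest to Lama1, Syk, Marveld2, Mthfs and Gm21060, and the largest rises nearest to Casz1, Mief1, Leo1, Tbk1 and Ago3. The Syk region, chr13:52571401-52575800, held 50 reads from WT, 36 from mdx and 26 from mdxTLR4-/- BMDM. Syk encodes the kinase downstream of Fc receptors, and the scaled density was 0.338 times that of WT, while scaled reads were 0.930 times. The Tbk1 region, chr10:121590201-121597800, held 33, 32 and 23 reads. Tbk1 encodes a kinase that activates IRF3, and the ratio of mdx to WT was 3.17 in scaled density and 1.25 in scaled reads. In both, the reads moved far less than the density.

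For mdxTLR4-/- against mdx, 557 regions had at least 20 reads in both lists, and the largest falls were nearest to Zfp600, Tcp10c, Cass4, Zfp825 and Ppp2r5a and the largest rises nearest to Smim24, Lama1, Arf2, Nfyc and Klf6. The Klf6 region, chr13:5777001-5780000, held 41 reads from WT, 23 from mdx and 32 from mdxTLR4-/- BMDM, a ratio of mdxTLR4-/- to mdx of 3.37 in scaled density and 1.57 in scaled reads. The Tcp10c region, chr17:13550601-13553600, held 57, 113 and 30 reads, and the Zfp825 region, chr13:74527601-74531200, held 91, 138 and 39. Both had a ratio of mdxTLR4-/- to mdx near 0.3 by either measure, 0.300 and 0.300 for Tcp10c and 0.340 and 0.319 for Zfp825. They were 86.8% and 94.9% repeat-masked, and the part of that in the difference was not tested.

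H3K27me3, which the rule did not use, was nearly absent from these regions. Its peaks covered 10.2% of chromosomes 1 to 19 in the WT list, 10.6% in the mdx list and 9.07% in the mdxTLR4-/- list, and 0.603%, 0.420% and 0.437% of the bases of the shared distal regions. They touched 47 regions (1.62%, 1.22 to 2.15) by the WT list, 36 (1.24%, 0.898 to 1.71) by the mdx list and 28 (0.965%, 0.669 to 1.39) by the mdxTLR4-/- list. All 3 intervals overlapped, but the lists were scored over the same regions, so this overlap does not compare them. The distal regions of 1 or 2 genotypes were touched in 3.99% (3.66 to 4.35), 3.73% (3.4 to 4.08) and 3.47% (3.16 to 3.81). The shared regions at gene starts were touched in 1.84%, 1.55% and 1.29%, with intervals that overlapped those of the shared distal regions. A total of 64 shared distal regions (2.21%) were touched in any genotype, 17 of them in all 3. WT alone had 19, mdx alone 10 and mdxTLR4-/- alone 5. WT and mdx shared 7, WT and mdxTLR4-/- 4, and mdx and mdxTLR4-/- 2.

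The regions with most bases under H3K27me3 were nearest to Nfe2l3, Esp38, Msmb, Rhbdd2 and Col1a1. The region in an intron of Col1a1, a collagen gene of fibroblasts, was fully covered in each genotype, at chr11:94949201-94952000, and held 34 H3K27ac reads from WT, 7 from mdx and 19 from mdxTLR4-/- BMDM. The one nearest to Esp38, chr17:39843001-39848800, held the starts of Gm26917, Gm42418 and AY036118, which GENCODE annotates as long noncoding RNAs. It was also fully covered and held 148, 101 and 67 reads. Whether the reads of either mark come from this place alone was not tested. The one nearest to Nfe2l3, chr6:51169201-51175400, was covered over 83.9%, 87.1% and 100% of its length. The Msmb and Rhbdd2 regions were covered over 100% in WT and over 10.5% and 12.5% in mdx BMDM, and were 94.3% and 96.4% repeat-masked. Peaks of both marks come from populations of cells, so that cells with either mark and alleles with both cannot be told apart.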

How the data were processed

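Untreated BMDM were assayed by native MNase ChIP-seq. Per the labels and the methods of the paper, the authors called bases with CASAVA 1.8, trimmed reads with cutadapt 1.15, mapped them to mm10 with Bowtie2 2.3.4, merged replicates and called peaks with SICER 2.0 (window 200 bp, gap 600 bp, FDR 0.01). Use of the input, duplicate removal and excluded regions are not given in the sources used here. Each deposited list gives a count of ChIP reads per peak, unscaled and with no input subtracted. The counts were analysed as 1 list per genotype, without tests. Gene starts came from GENCODE vM21, and sequence, repeat masking and miRNA from GRCm38.p6 (RefSeq). The regions, gene lists and motifs were chosen with earlier results of these data known. Regions and genes were named by fixed rules: the densest, the longest, the genes with most regions, up to 4 genes per list, the 5 largest rises and falls of scaled density with at least 20 reads, the 5 with most H3K27me3, the ChIP marker genes, and Spi1 and Csf1r. Regions of noncoding RNAs, those with most reads, those beside Tnf and Tgfb1, and further list genes (such as Fcgr1, Ctsb and Batf) were added after their values were seen. Alternatives were other distances, starts, merging, scalings, peak sets, folds and windows. The procedure was tested on simulated lists. Python 3.11.15, numpy 2.4.6, scipy 1.17.1, pysam 0.24.0 and matplotlib 3.10.9 were used.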

Additional observations from a re-analysis of the deposited data

Results flagged for a closer look

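The 7 regions set aside for 200 or more WT reads per kb held 17863 reads from WT (6.52% of the reads in its peaks), 15314 from mdx (7.99%) and 14159 from mdxTLR4-/- BMDM (8.40%), and are listed because they lie outside the comparisons. The longest of them, chr9:2999801-3038400, was 95.7% repeat-masked. On chromosome X, which was not used, 39 of 717 merged regions were shared and away from gene starts, with 805 reads from WT, 551 from mdx and 471 from mdxTLR4-/- BMDM.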

How the results depend on the processing

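No paired analysis was possible because the authors merged replicates before calling peaks, and for the same reason leaving out a replicate could not be done. Of 83 alternatives, 31 stayed within 1.5 times of a count or within the 95% interval of another value, 43 moved it further and 9 turned its direction. The number of regions was 2427 with the starts of all biotypes and 2313 with all transcript starts. All 9 were median density ratios, for mdx to WT, mdxTLR4-/- to WT and mdxTLR4-/- to mdx: 0.833, 0.818 and 0.978 unscaled, 0.833, 0.716 and 0.856 set against the 1st percentile of each list, and 0.969, 0.948 and 0.979 per kb of merged region. Scaled to all reads in peaks, the first 2 were 1.19 and 1.33. The number of shared distal regions was 1600 with at least 50% of the region under peaks of each list and 1578 with peaks of at least 10 reads. With genes of every biotype 63.6% were centred inside a gene.

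Regions at least 1.5 times higher and lower in mdx than in WT numbered 383 and 925 unscaled, 338 and 173 at a fold of 2, and 278 and 157 where the exact interval was clear of 1, with 400 and 552 by reads. For mdxTLR4-/- against WT the counts were 367 and 981, 458 and 111, and 360 and 99, with 377 and 590 by reads. For mdxTLR4-/- against mdx they were 582 and 626, 339 and 197, and 226 and 115, with 509 and 519 by reads. In scaled density the higher calls outnumbered the lower in each comparison, and unscaled or by reads the lower outnumbered the higher.

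The share of the reads of shared regions that lay in distal ones was 38.9%, 37.5% and 37.7% (WT, mdx, mdxTLR4-/-) over 5 kb from a start. It was 42.8%, 41.3% and 41.2% under 50 reads per kb, a density limit chosen after seeing the data, as were counts by reads. H3K27me3 covered at least 50% of the region in 0.586%, 0.483% and 0.310%. Genes with any region within 50 kb were 17.2% of all, 48.1% of the macrophage lists and 16.0% of the other lists, and genes nearest within 50 kb were 8.16% of all. Centred on the shared stretch, PU.1 letters were in 7.72% and median GC was 48.7%. In windows of 600 bases PU.1, AP-1 and GC box letters were in 9.93%, 23.9% and 10.4%, where gene-start windows held 6.10%, 11.6% and 37.5%. Peaks of 5 to 10 reads limit what single regions can show.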
